A study of Sus scrofa with 2 samples.

Results

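The genes described here encode nuclear subunits of ATP synthase (complex V of the mitochondrial respiratory chain) and of cytochrome c oxidase (complex IV). An exception is ATP5S, which encodes a coupling factor and is counted here with ATP synthase. A member is a unigene, that is, an assembled transcript sequence, whose protein match in the nr database carries a RefSeq accession of the pig genes ATP5B, ATP5D, ATP5F1, ATP5L, ATP5O, ATP5S, COX6A1, COX6B or COX7A2. Each of these 9 genes was matched by 1 unigene, so 9 of the 65535 unigenes of the deposited table are members, 6 for ATP synthase and 3 for cytochrome c oxidase. Unigenes were matched to these genes by name only and not by a measured value, but the genes were chosen with earlier results of these data known. The RNA came from the longissimus dorsi muscle (LM) of male full-sib pigs of the Shaziling breed, an indigenous Chinese pig, and of the lean Yorkshire breed, all 25 days old and without a treatment. The table has 1 column of reads and 1 column of RPKM (reads scaled by unigene length in kb and by library size) for each breed, and each column name lists 3 animals. It lists fewer unigenes than the study reported for its assembly. The listed ones hold 87.0% of the Yorkshire and 72.7% of the Shaziling library total. Matches, genes not found, shares of unigenes and sums below therefore describe the listed unigenes only. The sources used here do not say whether RNA was pooled or reads were merged, so each breed is 1 library. No spread between pigs could be computed, no difference below has a replicate check, and breed cannot be told apart from litter. Titles and column names gave the breed of each library, whereas a field of the sample record gives the breed classes the other way round.

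Cytochrome c oxidase is the last electron carrier of the respiratory chain; it hands electrons to oxygen and pumps protons across the inner mitochondrial membrane. ATP synthase lets the protons flow back through its membrane part, Fo, and uses the turning of a central stalk to make ATP in its soluble head, F1, while a peripheral stalk keeps the head from turning. The catalytic core of cytochrome c oxidase and a few Fo subunits are encoded by mitochondrial DNA and all other subunits by nuclear genes, so each enzyme is built from products of both genomes. Skeletal muscle, and its slow oxidative fibres above all, depends on both enzymes for sustained contraction.

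The library totals behind the RPKM values were 33949238 reads for Yorkshire and 28305925 for Shaziling. The member unigenes had between 104 and 9200 reads in Yorkshire and between 156 and 20593 in Shaziling, and the intervals are widest for COX6A1 and COX7A2. The 95% intervals given below are exact intervals on the reads and cover counting error only. All 9 member unigenes were longer than the coding sequence of their matched protein, by a factor of 1.10 for ATP5B to 2.46 for ATP5L, and they ranged from 448 bp (COX7A2) to 1873 bp (ATP5B). No sequences are shown, because sequences of the unigenes, proteins and promoters were not analysed here. In bulk tissue, more cells of a type and more RNA per cell cannot be told apart.

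The RPKM levels of the members covered a wide range, from 5.66 to 256 in the Yorkshire library and from 9.99 to 388 in the Shaziling library. ATP5O had the highest level in Yorkshire, followed by ATP5B, ATP5F1, COX6B, ATP5D, ATP5L, COX7A2, COX6A1 and ATP5S. In Shaziling ATP5B came first, and the order was then ATP5O, COX6B, ATP5F1, ATP5D, ATP5L, COX7A2, COX6A1 and ATP5S. The lower 5 genes therefore held the same places in both libraries, while ATP5O and ATP5B, and likewise ATP5F1 and COX6B, changed places. In both libraries, the levels of COX6A1 and ATP5S were the only neighbours whose intervals overlapped. The top of the order exceeded the bottom 45.2 times in Yorkshire and 38.9 times in Shaziling. The deposited RPKM of the 9 members was 1.01 to 3.49 times as high in Shaziling, and their sum was 685 in Yorkshire and 1248 in Shaziling. The interval of the smallest ratio, that of ATP5O, included 1. For comparison, the median ratio of unigenes that reached RPKM 10 in each library was 1.28.

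**Figure D1:**
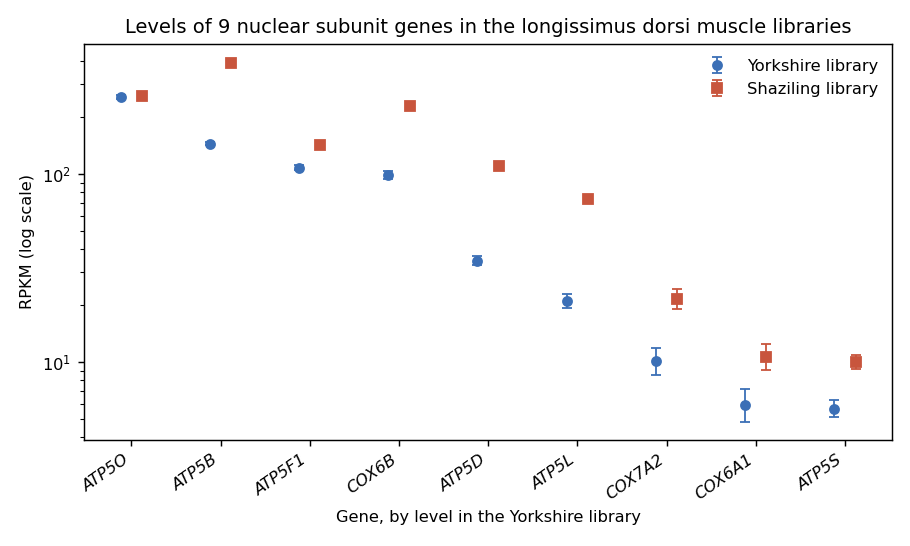
RPKM (log axis) of each of the 9 genes in the Yorkshire library (circles) and the Shaziling library (squares); bars are exact Poisson 95% intervals on the reads and cover counting error only. The Shaziling square lies clearly above the Yorkshire circle except for ATP5O (256 and 260), and the levels of COX6A1 and ATP5S are alike within each library.

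The F1 part of ATP synthase is represented by ATP5B and ATP5D. ATP5B encodes the beta subunit, which carries the catalytic sites; its unigene contig_1316 was covered by 9200 Yorkshire reads and 20593 Shaziling reads, which is RPKM 145 and 388. The ratio of Shaziling to Yorkshire was 2.68 (95% interval 2.62 to 2.75). ATP5D encodes the delta subunit of the central stalk. Its unigene contig_12668 was covered by 1383 and 3689 reads, at RPKM 34.6 and 111 with a ratio of 3.20 (95% interval 3.01 to 3.41). Both F1 genes were thus higher in the Shaziling library by more than 2-fold, and the ratio of ATP5D was 1.19 times that of ATP5B (95% interval 1.11 to 1.27).

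The peripheral stalk is represented by ATP5F1, which encodes subunit b, and by ATP5O, which encodes the oligomycin sensitivity conferring protein that joins the stalk to F1. These genes had the smallest ratios of the members. The ATP5F1 unigene (contig_279) was covered by 4283 Yorkshire reads and 4743 Shaziling reads, at RPKM 108 and 143, and its ratio was 1.33 (95% interval 1.27 to 1.38). For ATP5O (contig_1063) the reads were 6679 and 5643 and the RPKM 256 and 260. Its ratio was 1.01 (95% interval 0.978 to 1.05), and it is the only member whose interval included 1. ATP5S, which encodes coupling factor B and is now called DMAC2L, was the least abundant member. Its unigene (contig_3766) was covered by 359 and 528 reads, at RPKM 5.66 and 9.99, and the ratio was 1.76 (95% interval 1.54 to 2.02).

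ATP5L encodes subunit g of the membrane part, which is involved in holding ATP synthase dimers together. It had the largest ratio of the members. Its unigene (contig_4663) was covered by 547 Yorkshire reads (RPKM 21.2) and 1590 Shaziling reads (RPKM 74.0). The ratio was 3.49 (95% interval 3.16 to 3.85), and the interval of its quotient with ATP5D included 1 (1.09, 95% interval 0.971 to 1.22).

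The cytochrome c oxidase members were closer to each other. COX6B encodes a subunit on the outer face of the enzyme, at the contact between its monomers. Its unigene contig_4275 was covered by 1670 Yorkshire reads (RPKM 98.4) and 3254 Shaziling reads (RPKM 230), a ratio of 2.34 (95% interval 2.20 to 2.48). COX7A2 and COX6A1 encode the isoforms found in most tissues, whose counterparts COX7A1 and COX6A2 predominate in heart and skeletal muscle. COX7A2 (contig_6418) had 154 and 276 reads (RPKM 10.1 and 21.8), with a ratio of 2.15 (95% interval 1.76 to 2.64). COX6A1 (contig_15722) had 104 and 156 reads (RPKM 5.91 and 10.6), with a ratio of 1.80 (95% interval 1.39 to 2.33). COX6B was thus the abundant gene of the 3 and the general isoforms were low in both libraries. The intervals of the quotients of COX7A2 with COX6B (1.09, 0.885 to 1.34) and with COX6A1 (1.19, 0.870 to 1.64) included 1, and that of COX6B with COX6A1 (1.30, 1.01 to 1.68) did not. COX7A1 and COX6A2 were among the genes looked for by name, and no listed unigene was named for them, so their levels are not known here.

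A unigene was called different with an RPKM ratio of 2 or more and a false discovery rate of 0.05 by an exact binomial test of its reads (two-sided), which compares the libraries and not the breeds. By this rule 5 of the 9 members were called higher in Shaziling (ATP5B, ATP5D, ATP5L, COX6B and COX7A2), and 0 in the other direction. Over all 65535 unigenes, 24.1% were called higher in Shaziling, against 7.08% in the other direction. For the 4192 unigenes that reached RPKM 10 in at least 1 library, which include 8 of the members, these shares were 35.5% and 7.18%. With a fold limit of 1.5 instead of 2, 7 of the 9 members were called (27.6% of all unigenes, 51.0% of the abundant ones), and with a limit of 3, ATP5D and ATP5L were (17.0% and 19.5%). ATP5O was not called, with an adjusted p of 0.644 in the exact binomial test; ATP5F1, ATP5S and COX6A1 passed the test on the reads and stayed under the 2-fold limit. The median log2 ratio of the members was 1.10. Over the 2363 unigenes that reached RPKM 10 in each library it was 0.35, with quartiles of -0.11 and 0.91. Of the 9 members, 8 lay above that median, but ATP5S and COX6A1 were under RPKM 10 in Yorkshire and outside the 2363 unigenes. A ratio larger than that of ATP5L was found for 6.73% of these unigenes, larger than that of ATP5B for 11.6%, larger than that of ATP5F1 for 46.9% and larger than that of ATP5O for 67.6%.

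**Figure D2:**
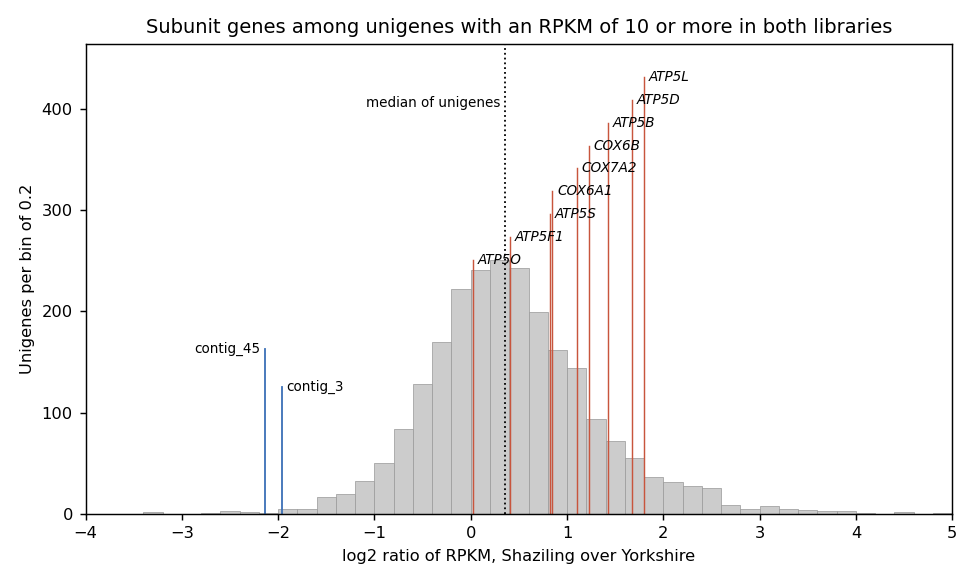
Histogram of the log2 ratio of RPKM (Shaziling over Yorkshire, bins of 0.2) for the 2363 unigenes that reached RPKM 10 in each library. The 9 genes (tall lines) and the mitochondrially encoded unigenes (short lines) are marked, and line heights only separate the names. ATP5S and COX6A1, under RPKM 10 in Yorkshire, are marked but not counted in the bars. ATP5F1 lies near the median of 0.35, ATP5O below it and ATP5L farthest to the right at 1.80, while contig_3 and contig_45 lie near -2.0 and -2.1.

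The count of called members depended on how the libraries were scaled. RPKM depends on everything else sequenced in a library, and reads of mitochondrial transcripts took up more of the Yorkshire library. With RPKM values rescaled to the same sum, 2 of the 9 members were called higher in Shaziling (ATP5D and ATP5L; 14.8% of all unigenes and 22.7% of the abundant ones). The same genes were called with TMM scaling, which trims extreme ratios (14.8% and 22.6%). With the median log2 ratio of the above 2363 unigenes set to 0, ATP5B, ATP5D and ATP5L were called (16.1% and 24.6%). With library totals without the mitochondrial unigenes only ATP5L was called (10.9% and 17.0%). Under these alternatives, 1 to 3 of the 9 members therefore passed the rule. ATP5O was lower in Shaziling under all 4 alternatives, with log2 ratios from -0.70 to -0.33, and ATP5F1 was lower under 3 of them, down to -0.31, and at 0.06 with the median set to 0. For the other 7 members the ratio of Shaziling to Yorkshire remained above 1 under each scaling. With library totals without the mitochondrial unigenes, however, ATP5S and COX6A1 were at log2 ratios of only 0.10 and 0.13. Their 95% intervals on the reads, shifted by the same factor, then include a ratio of 1.

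**Figure D3:**
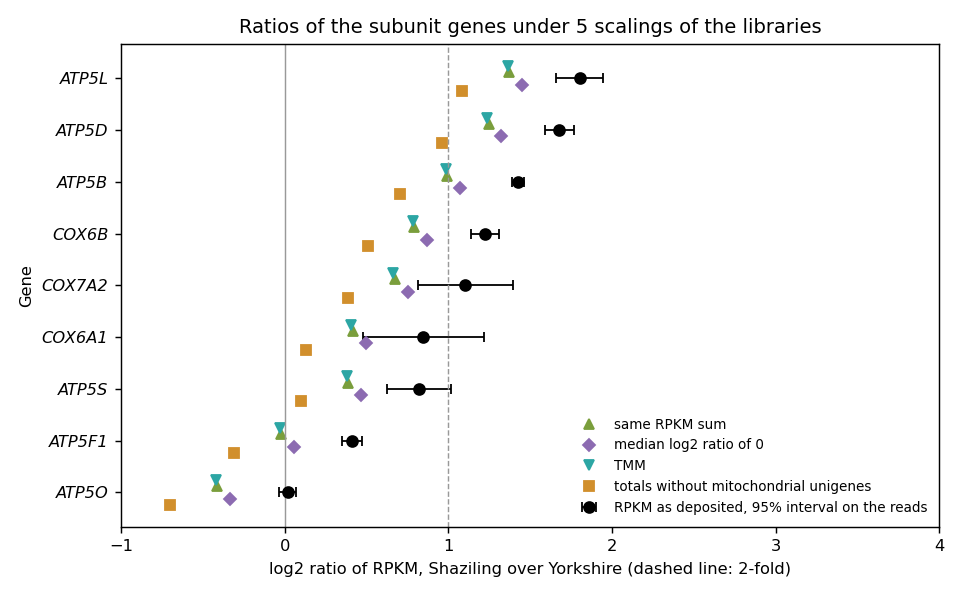
Log2 ratio of RPKM (Shaziling over Yorkshire) of each gene with the values as deposited (black circles, exact 95% intervals on the reads) and under 4 other scalings of the libraries (colored symbols). Every scaling moves all genes by the same amount, so the order of the genes is kept; ATP5L stays right of the 2-fold line and ATP5O moves left of 0.

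A comparison of the members with each other within a library does not depend on the scaling. Of the 36 pairs of members, 31 had ratios that differed by more than the counting error. The largest difference was between ATP5L and ATP5O, whose ratios differed 3.44 times (95% interval 3.10 to 3.82), followed by ATP5D and ATP5O (3.16 times, 95% interval 2.94 to 3.39). The ratio of the F1 gene ATP5B was 2.65 times that of ATP5O (95% interval 2.54 to 2.77) and 2.02 times that of ATP5F1 (95% interval 1.93 to 2.12). Relative to ATP5B set at 100%, the RPKM of ATP5O was 177% in Yorkshire and 66.8% in Shaziling. That of ATP5F1 was 74.6% and 36.9%. ATP5D was at 23.9% and 28.5% of ATP5B, ATP5L at 14.7% and 19.1%, and COX6B at 68.0% and 59.2%. The peripheral stalk genes were thus lower relative to the beta subunit in Shaziling, and subunits delta and g slightly higher.

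**Figure D4:**
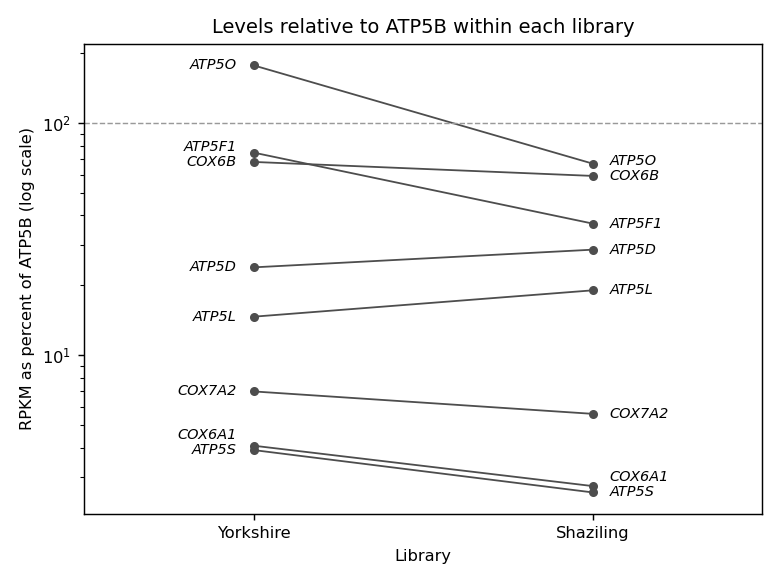
RPKM of 8 genes as a percent of the RPKM of ATP5B in the same library (log axis), with a line joining the Yorkshire and the Shaziling library. ATP5O is at 177% of ATP5B in Yorkshire and 66.8% in Shaziling, on either side of the dashed line at 100%, ATP5F1 is at 74.6% and 36.9%, and ATP5D and ATP5L lie slightly higher in Shaziling.

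The only repeated measure of a gene in these data is given by genes with several unigenes. Among 179 genes with 2 or more unigenes of 100 or more reads, the largest and smallest ratios of the same gene differed 1.52 times at the median and 3.64 times at the 90th percentile. Of the 36 member pairs, 18 differed by more than 1.52 times and 0 by more than 3.64 times. Differences between members of this size thus also occurred between fragments of the same gene elsewhere in the table. For 14 genes with unigenes of 1000 or more reads, these differences were 1.46 times at the median and 2.44 at the 90th percentile. Larger than 2.44 were the differences of ATP5O from ATP5L (3.44), ATP5D (3.16) and ATP5B (2.65), and of ATP5F1 from ATP5L (2.62). Since each member had 1 unigene, the agreement within the member genes could not be measured.

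The mitochondrially encoded unigenes went the other way. The unigene contig_3 (11617 bp, named for NADH dehydrogenase subunit 5) stood at RPKM 37772 in Yorkshire and 9681 in Shaziling, and contig_45 (3670 bp, named for NADH dehydrogenase subunit 1) at 6876 and 1562. They were 3.90 and 4.40 times higher in Yorkshire. Together they are 15287 bp long; whether they include the mitochondrial genes of cytochrome c oxidase and ATP synthase was not tested. In Yorkshire the RPKM of contig_3 was 55.2 times the summed RPKM of the 9 members and in Shaziling 7.75 times. Relative to contig_3, each member was higher in Shaziling, by 3.95 times for ATP5O, 5.18 for ATP5F1, 6.88 for ATP5S, 7.02 for COX6A1, 8.39 for COX7A2, 9.12 for COX6B, 10.5 for ATP5B, 12.5 for ATP5D and 13.6 for ATP5L. Relative to contig_45 these values ranged from 4.46 to 15.3. They are quotients within each library and are the same under every scaling. Contig_3 held 43.9% of all Yorkshire reads and 11.2% in Shaziling, and its own 3.90-fold difference is part of each value relative to it.

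Of the 16 other ATP synthase genes on the list, 4 were found. Ratios of these and the following genes are with the deposited RPKM values; under the other scalings each is multiplied by 0.608 to 0.783. ATPIF1, the inhibitor that stops ATP synthase from running backward, stood at RPKM 124 and 115 in Yorkshire and Shaziling, a ratio of 0.923 (95% interval 0.866 to 0.983). ATPAF1, a chaperone for the assembly of F1, stood at RPKM 17.6 and 20.6, a ratio of 1.17 (95% interval 1.10 to 1.24). Neither was called, and both ratios were under those of the F1 subunits ATP5B and ATP5D. ATP5E, the epsilon subunit of the central stalk, stood at RPKM 158 and 339, a ratio of 2.15. ATP5J2, subunit f of the membrane part, stood at RPKM 22.9 and 96.6, a ratio of 4.22. ATP5E and ATP5J2 were called higher in Shaziling, but their names come from the study's list of differing unigenes on these same libraries, so their direction is not independent evidence.

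Of the other nuclear cytochrome c oxidase genes, 2 of 15 were found and both were called higher in Shaziling. COX8B, listed as COX8H in the pig annotation and the isoform of subunit 8 in heart and skeletal muscle, was covered by 350 Yorkshire reads (RPKM 18.7) and 3742 Shaziling reads (RPKM 239). Its ratio was 12.8 (95% interval 11.5 to 14.3), against 1.80 to 2.34 for the 3 cytochrome c oxidase members. COX4I1, the largest nuclear subunit, stood at RPKM 152 and 364, a ratio of 2.39 (95% interval 2.30 to 2.49), close to COX6B; its name also comes from the study's list.

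**Figure D5:**
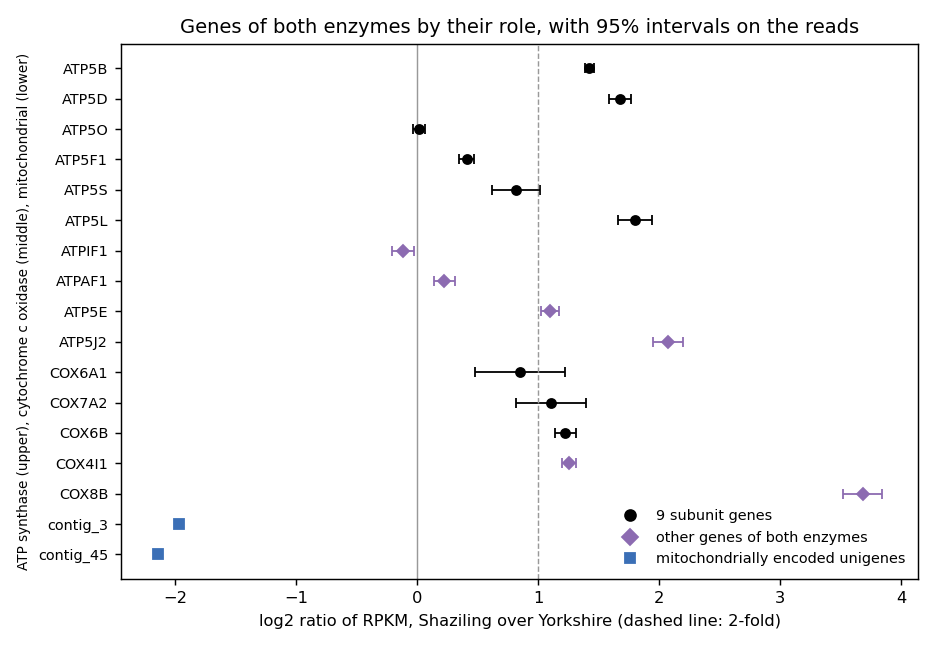
Log2 ratio of RPKM (Shaziling over Yorkshire) with exact 95% intervals on the reads for the 9 genes (circles), the other genes of both enzymes that were found (diamonds) and the mitochondrially encoded unigenes (squares). ATP5O, ATP5F1, ATPIF1 and ATPAF1 lie near 0, the F1, membrane and cytochrome c oxidase subunits mostly right of the 2-fold line, COX8B at 3.68 and the mitochondrial unigenes near -2.0 and -2.1.

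Genes around these enzymes had ratios over a similar range. Of 24 assembly factors of cytochrome c oxidase, 4 were found and 1 was called: SCO2, which delivers copper to the enzyme, was covered by 9 Yorkshire reads and 28 Shaziling reads, a ratio of 3.73 (95% interval 1.71 to 8.99). Another SCO2 unigene with a lower mean RPKM was covered by 2 and 28 reads, a ratio of 16.8 (95% interval 4.23 to 145). LRPPRC, which stabilises mitochondrial mRNA, stood at RPKM 17.3 and 17.5, a ratio of 1.01, and TACO1 and COX10 had ratios of 1.73 and 1.70. Of 13 genes of ATP export and electron supply, 3 were found. SLC25A4, the muscle exchanger of ADP and ATP, was called (RPKM 114 and 267), with a ratio of 2.35, while VDAC2, a pore of the outer membrane, and CKMT2, the mitochondrial creatine kinase of muscle, had ratios of 1.91 and 1.32. Of 14 regulators of mitochondrial genes, 3 were found, of which ESRRA, a nuclear receptor that drives respiratory chain genes, was called (RPKM of 3.99 and 18.4, ratio 4.63). TFAM, which activates transcription of mitochondrial DNA, had a ratio of 1.21, and MTERF1 had a ratio of 0.705. Among 27 nuclear genes of complexes I to III and their assembly factors, a list taken after the values were seen, 12 were called higher in Shaziling. With the deposited values 0 were called lower. Of all unigenes 24.1% were called higher in Shaziling, and of those that reached RPKM 10 in at least 1 library 35.5%. The median log2 ratio of the 27 genes was 0.69, from -0.84 for SDHB to 2.20 for NDUFB2. That of the members was 1.10, and this difference was not tested. Under each of the other scalings the ratio of SDHB, 0.559 as deposited, lies past the 2-fold limit toward Yorkshire. Calls of this list under those scalings were not counted.

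Markers of muscle fibres and of other cells also differed between the libraries. Of 7 markers of muscle fibres, 5 were found, with ratios of 2.13 (TNNI2) to 12.9 (ACTA1) and a summed RPKM of 9113 in Yorkshire and 29172 in Shaziling. The fast fibre markers TNNC2, TNNI2 and MYLPF each exceeded RPKM 1000 in both libraries, while TNNT3 stood at 792 in Yorkshire and 2081 in Shaziling. The slow fibre markers TNNI1 and MYL3, 2 of 6, had ratios of 3.40 and 4.29. Another TNNI1 unigene with a lower mean RPKM was covered by 1 Yorkshire read and 172 Shaziling reads. The names of the unigenes that represent the 5 muscle fibre markers, TNNI1 and the blood marker HBA come from the study's list of differing unigenes, so these are not independent evidence of a direction. A further MYLPF unigene, named by its RefSeq accession, stood at RPKM 325 and 1867, a ratio of 5.75. Of the blood markers, 3 of 4 were found, with a summed RPKM of 72.3 and 404 and ratios of 3.60 (HBA), 10.6 (ALAS2) and 11.2 (HBB). ALAS2 was low, at RPKM 0.422 and 4.49. VWF of endothelium was 20.2 times higher in Shaziling (RPKM 0.521 and 10.5), whereas the endothelial genes PECAM1 and KDR had ratios of 1.36 and 1.53. CSF1R, the only 1 of 4 macrophage markers found, was 6.29 times higher in Shaziling (RPKM 0.619 and 3.89). FABP4, the only 1 of 4 adipocyte markers found, had a ratio of 1.86. The fibroblast genes COL3A1, COL1A2 and DCN had ratios of 1.04, 1.24 and 0.813. No marker that was found was at 0 reads in either library. The part of these cell types in the values of the members was not tested.

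Median ratios also differed between length classes of unigenes. For the 2363 abundant unigenes, the median log2 ratio was 0.38 from 200 to 499 bp, 0.59 from 500 to 999 bp, 0.40 from 1000 to 1999 bp and 0.27 above. The members fall in the first 3 classes, with 1, 4 and 4 genes. The part of length in the values of the members was not tested, and the members from 500 to 999 bp include both ATP5L and ATP5O, which had the largest and the smallest ratio. Genes outside the list with ratios nearest to the members' median (log2 ratio of 1.10, over 2 libraries) were PGP (1.11), PARK7 (1.10), ACADVL (1.10), TXN2 (1.11) and CD74 (1.09).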

How the data were processed

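RNA of the LM was measured by RNA-seq in 2 libraries, 1 per breed. The authors trimmed the reads, assembled unigenes de novo with CLC Genomics Workbench and CAP3, and matched them to nr by BlastX. The submitters' processing notes also name TopHat2 2.0.6, CASAVA 1.8 and a mouse genome. This differs from the de novo assembly that the authors describe, and the unigene identifiers are those of an assembly. The reads per unigene were deposited as raw whole-number counts; the counting program is not given in the sources used here. The authors made the RPKM values in Qualimap and deposited them; each was checked against its count and length and gave 1 total per library. The unigenes listed are fewer than the study reported and account for 87.0% (Yorkshire) and 72.7% (Shaziling) of these totals. Sums, shares and searches for genes describe them only. In the header a separator between a pair of names is missing, and columns were read in header order.

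Genes were named through RefSeq protein accessions of the pig assembly, without version numbers (5698 unigenes, 4484 symbols), and, for list genes only, through UniProt names in the study's table of differing unigenes, with a map of names to symbols completed after values had been seen. A gene with several unigenes is represented by that with the highest mean RPKM. Ratios are of RPKM without a pseudocount, with Clopper-Pearson 95% intervals on the reads. A gene was called with a fold change of 2, computed with at least 3 reads per library, and a false discovery rate of 0.05 (two-sided exact binomial test, smaller tail doubled, Benjamini-Hochberg over 65535 unigenes, tested on simulated data). The p was first computed by summing over the outcomes no likelier than that observed; the doubled tail and the minimum of 3 reads were adopted after the counts under these versions had been seen, because the doubled tail gave the count of an earlier analysis of these data. The quotients of member ratios have 95% intervals from the normal approximation on the log scale. Named were all members, all genes found on the lists of both enzymes, the 2 most abundant and any called genes of other lists, and the 5 genes nearest to the members' median ratio. COX10, TACO1 and MTERF1, and further markers, were named beyond this rule. The members and lists were chosen with earlier results of these data known. Alternatives were 4 scalings, other pseudocounts, thresholds, filters and choices of unigene. A search for promoter motifs was not run. The software was Python 3.11.15 with scipy 1.17.1 and pandas 2.3.3, and R 4.3.3 with edgeR 4.0.16 for TMM.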

Additional observations from a re-analysis of the deposited data

How the results depend on the processing

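The number of members called higher in Shaziling, 5 with the deposited RPKM values, was 2 after rescaling to the same sum and with TMM, 3 with the median log2 ratio set to 0, 1 with library totals without the mitochondrial unigenes, and 2 with a fold change of 3. The median log2 ratio of the members, 1.10, was 0.67, 0.66, 0.75 and 0.39 under the same scalings in the order same sum, TMM, median and totals. ATP5O reversed to -0.41, -0.42, -0.33 and -0.70, and ATP5F1 to -0.022 and -0.030 with the same sum and TMM and to -0.31 with the totals. These shifts follow from the construction of the scalings, which multiply all ratios by the same factor. Of all 65535 unigenes 20430 differed, and of the 4192 that reached RPKM 10 in at least 1 library 1788 did. The share called higher in Shaziling was 24.1% of the former and 35.5% of the latter. The share called higher in Yorkshire was 7.08% and 7.18%. In alternatives chosen after seeing the data, 20927 unigenes differed with the binomial p summed over the outcomes no likelier than that observed, and 21553 when the fold change was also computed without the minimum of 3 reads; without that minimum alone the count was again 20430. The calls of the 9 members were the same under these 3 alternatives. Pseudocounts, a false discovery rate of 0.01 and a fold change of 1.5 kept the count of called members within 1.5 times. The longest unigene and the sum over unigenes gave the same values by construction, as each member had 1 unigene. No paired analysis was possible because each breed has 1 library, and no replicate could be left out. With 1 library per breed the depth limits only the counting error.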
